A study of Caenorhabditis elegans with 10 samples.

Results

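The transcripts of the PVD and OLL sensory neurons of wild-type *Caenorhabditis elegans* were set against those of the whole wild-type animal. The comparison took the arrays titled as wild-type PVD/OLL, 3 in number, and those titled as wild-type whole animal, 2 in number, which make 5 of the 10 arrays of the series. The animals were L2/L3 larvae of the wild-type strain N2, raised at 25 °C. In the PVD/OLL samples a poly(A) binding protein, PAB-1, with a FLAG epitope was expressed from the *ser-2* promoter fragment prom3B, and the messages bound to it were recovered by immunoprecipitation (mRNA tagging). Whole-animal samples were total RNA with no immunoprecipitation, and all samples were then amplified and labelled with the same kits. The other 5 arrays, 3 of PVD/OLL and 2 of whole animals from *mec-3(e1338)* mutants, entered the estimate of the spread and a comparison of the enrichments of both genotypes.

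PVD is a nociceptor of the body wall whose dendrite branches over most of the animal, and it responds to harsh touch and to cold. OLL is a pair of ciliated mechanosensory neurons of the head. In mRNA tagging the tagged protein is made only where its promoter is active, so the recovered RNA is enriched for transcripts of those cells, while some RNA of other tissues is carried along. Whole-animal RNA holds the transcripts of gut, muscle, epidermis, germ line and all other cells, with these few neurons among them.

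Each row of the deposited table is a WormBase gene identifier with 1 log2 value per array. The table of gene names used here held 0 of the 18451 identifiers, and the files do not pair them with names, so no gene, function, position or sequence is given for any row. For the same reason neither *ser-2* nor *mec-3* nor any marker of PVD, OLL or another tissue was looked up, and the labelled cell type was not checked against its markers. The transcripts are described by level, by the size and stability of their difference and by 4 identifiers.

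The 5 arrays ran over a similar range. The median of the PVD/OLL arrays was 6.59, 6.63 and 6.64 (log2) in replicates 1, 2 and 3, against 6.65 and 6.77 in whole-animal replicates 1 and 2. They parted at the dim end: 5% of rows lay below 3.53, 3.73 and 3.96 on the PVD/OLL arrays, against 4.10 and 4.25 on the whole-animal arrays. Between pairs of PVD/OLL replicates 960 to 2103 rows differed by at least 2-fold, and between the 2 whole-animal replicates 2090 rows did. The 6 pairs of a PVD/OLL and a whole-animal array differed that far in 3866 to 6258 rows. Nothing in the labels says how the replicates were grown beyond calling them biological.

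Of the 18451 rows, 1773 (9.61%) were higher and 3496 (18.9%) were lower in PVD/OLL than in whole animals, 28.6% in all (limma, all 10 arrays, Benjamini-Hochberg adjusted p under 0.05, the rule for a call throughout). After quantile normalization the counts were 2439 higher and 2216 lower, so which direction held more rows depended on the scaling. Without whole-animal replicate 2 they were 819 and 1485, and with the 5 wild-type arrays alone 753 and 1698. Rows called at 2-fold or more were 1023 higher (5.54%) and 2307 lower (12.5%). The median difference, PVD/OLL minus whole animal, was 1.06 (log2) among higher rows and -1.16 among lower rows, against -0.21 over all rows. The smallest difference that was called was 0.56 among higher rows and -0.55 among lower rows. On the arrays themselves, the PVD/OLL and whole-animal values did not overlap in 1769 of the higher and 3474 of the lower rows. Over all rows 51.5% did not overlap, 18.6% with PVD/OLL higher and 32.9% with it lower, so the absence of overlap among called rows says little by itself.

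Large enrichments were few. Among higher rows 67 reached 4-fold, 10 reached 8-fold and 1 reached 16-fold. Among lower rows 312 reached 4-fold, 40 reached 8-fold and 6 reached 16-fold. In this RNA, a smaller share of cells of a type and less RNA per cell cannot be told apart, and cell type, immunoprecipitation and any separate normalization of both kinds of sample cannot be told apart either.

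**Figure D1:**
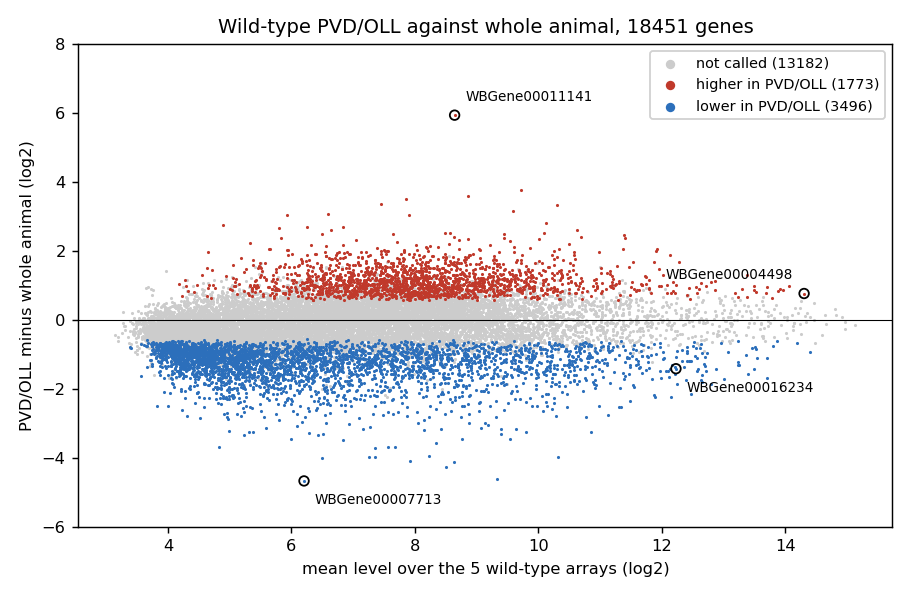
Each point is 1 of 18451 rows, with its mean level over the 5 wild-type arrays (log2) on the x axis and its difference, PVD/OLL minus whole animal (log2), on the y axis. Red points are the 1773 called higher and blue points the 3496 called lower, grey points were not called, and circles mark the 4 identifiers given in the text. WBGene00011141, at 5.94, stands alone above the other enriched rows, and the dim end at the left holds many blue points and few red ones.

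WBGene00011141 had the largest enrichment. It measured 10.96, 10.94 and 11.15 (log2) on the PVD/OLL arrays, against 4.71 and 5.45 on the whole-animal arrays. The groups lay far apart, and all 3 PVD/OLL values were within 0.22 of each other. By its mean level this row ranked 643rd of 18451 in PVD/OLL, which is above 96.5% of rows, against 14616th in whole animals, above 20.8%. It was 61.2-fold higher in PVD/OLL (log2 difference 5.94, SE 0.42, limma adjusted p = 0.000278). Its whole-animal level lay in the dim range, where no detection call tells signal from background, so the fold depends on how the authors' processing treated dim probes. The mutant arrays gave 11.42, 11.06 and 11.16 in *mec-3* PVD/OLL, against 5.59 and 7.31 in *mec-3* whole animals, which is again a clear gap.

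WBGene00004498 was the brightest of the higher rows. Its level was 14.51, 14.72 and 14.59 (log2) in PVD/OLL, against 14.06 and 13.63 in whole animals, which places it 9th in PVD/OLL and 57th in whole animals. The enrichment was small, 1.70-fold (log2 difference 0.76, SE 0.21, limma adjusted p = 0.0221). The call was not kept in every setting. Without PVD/OLL replicate 2 the difference was 0.71, with an adjusted p of 0.0623 in limma. With the 5 wild-type arrays alone it stayed at 0.76, with an adjusted p of 0.0951 in limma. Without whole-animal replicate 2 the difference was 0.55. In the mutant the row was level, with 14.68, 14.75 and 14.66 in *mec-3* PVD/OLL, against 14.82 and 14.59 in *mec-3* whole animals (difference -0.01, limma adjusted p = 0.980). A test of the difference between the enrichments of both genotypes did not call this row (limma adjusted p = 0.428).

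WBGene00007713 had the largest fall. It measured 3.87, 4.86 and 4.28 (log2) in PVD/OLL, which is dim on every array, against 7.60 and 10.41 in whole animals. The whole-animal replicates themselves were 2.81 apart, so the size of the fall is poorly fixed even though the groups do not overlap. As fitted it was 25.5-fold lower in PVD/OLL (log2 difference -4.67, SE 0.73, limma adjusted p = 0.00208). The difference stood at -3.27 without whole-animal replicate 2 and at -6.07 without replicate 1, and the row was called both times. In the mutant it measured 4.53, 4.13 and 5.23 in *mec-3* PVD/OLL, against 7.32 and 5.55 in *mec-3* whole animals. That difference was not called (-1.81, limma adjusted p = 0.0896). The test of the difference between genotypes did not call the row either (limma adjusted p = 0.400).

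**Figure D2:**
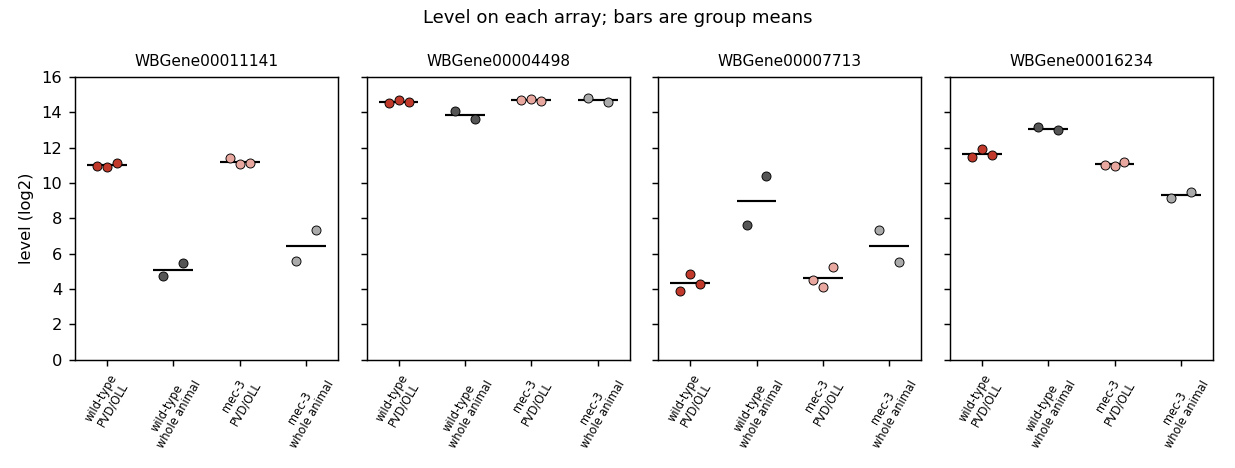
Level (log2, y axis) of the 4 identifiers on each array, 1 panel per identifier, with the groups along the x axis: wild-type PVD/OLL, wild-type whole animal, *mec-3* PVD/OLL and *mec-3* whole animal. Points are arrays and bars are group means. WBGene00011141 is near 11 in PVD/OLL of both genotypes, WBGene00004498 is bright everywhere, the whole-animal points of WBGene00007713 lie far apart, and WBGene00016234 is lower in PVD/OLL in wild type but higher in *mec-3*.

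The 20 largest differences in each direction, taken among called rows whose groups did not overlap, differed in where on the scale they lay. The 20 most enriched rows ran from 5.70-fold to 61.2-fold and had a median level of 9.37 (log2) in PVD/OLL, against 5.92 in whole animals. Of these, 11 lay in the top 25% of rows on every PVD/OLL array, and 4 lay in the bottom 25% on both whole-animal arrays. The 20 most depleted rows ran from 10.1-fold to 25.5-fold lower and had a median of 6.15 in PVD/OLL, against 9.83 in whole animals. Of these 14 lay in the top 25% on both whole-animal arrays, and 1 lay in the bottom 25% on every PVD/OLL array. The choice ended between differences of 2.51 and 2.50 among enriched rows and between -3.34 and -3.33 among depleted rows. In *mec-3*, 19 of the 20 enriched rows were also higher and 13 were called higher. Their median difference was 1.81 (log2) there, against 2.92 in wild type. Of the 20 depleted rows, 17 were also lower in *mec-3*, but only 6 were called lower. Their median was -1.27 there, against -3.83 in wild type. Of all rows 7.59% were called higher and 19.1% lower in *mec-3*.

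The same arrays gave the extreme values in many of the depleted rows. In 17 of these 20 rows whole-animal replicate 2 read above replicate 1, and in 13 of them PVD/OLL replicate 3 was the lowest of its group. Over all rows whole-animal replicate 2 read above replicate 1 by a median of 0.08 (log2), so it was the higher one in most rows. The exact share is not given here. It was at least 2-fold above in 1435 rows and below in 655. PVD/OLL replicate 3 read above replicates 1 and 2 by medians of 0.14 and 0.05. A choice by large fall favours high whole-animal and low PVD/OLL readings. The median SD of the 20 depleted rows was 0.76 in PVD/OLL (n = 3) and 0.52 in whole animals (n = 2). Among the 20 enriched rows it was 0.49 in PVD/OLL and 0.36 in whole animals. Whole-animal replicate 2 read above replicate 1 in 13 of those rows. The part of single arrays in these differences was not tested beyond leaving each array out.

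Calls in the 2 directions were spread differently over the levels. Rows were put in order of their mean over the 5 wild-type arrays and cut into 4 equal parts. The dimmest 25% of rows, below 5.04 (log2), held 20 higher rows (0.434%), against 1148 lower rows (24.9%). The next 25% held 263 higher and 982 lower rows. In the third part, between 6.66 and 8.20, the higher rows were the more numerous with 728 (15.8%), against 577 lower rows (12.5%). The brightest 25% held about as many of each, 762 higher (16.5%) and 789 lower (17.1%).

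The dim rows stood lower in PVD/OLL as a whole. The median difference over all rows of the dimmest part was -0.48 (log2), and it was -0.30, 0.09 and 0.03 in the parts above it. After quantile normalization, which gives all 10 arrays 1 distribution, these medians became -0.02, 0.01, 0.09 and 0.09. The dimmest part then held 166 higher and 297 lower rows, and the brightest 881 higher and 683 lower rows. The excess of lower over higher rows in the dimmest part was thus smaller after quantile normalization but still present. With each array centred on its median the dimmest part held 31 higher and 942 lower rows. In the brightest part that centring gave 867 higher and 662 lower rows.

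**Figure D3:**
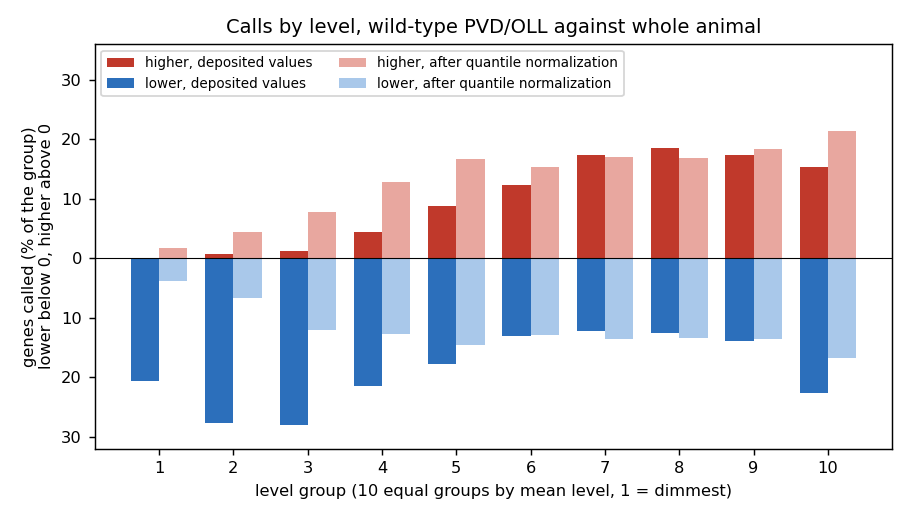
Share of rows called (%, y axis; higher drawn above 0 and lower below) in each of 10 equal groups of rows by mean level over the 5 wild-type arrays (x axis, 1 is the dimmest). Dark bars are the deposited values and pale bars the values after quantile normalization. On the deposited values group 1 had 0.108% higher and 20.6% lower rows and group 8 had 18.5% higher and 12.5% lower rows.

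Levels taken from other arrays gave a like order. With rows ordered by their mean over the 5 *mec-3* arrays, which are no part of the wild-type difference, the dimmest 25% held 20 rows higher and 1239 lower in wild-type PVD/OLL. The brightest 25% held 830 higher rows (18.0%), against 678 lower rows (14.7%). In the enrichment measured in *mec-3*, set out over the wild-type order, the dimmest 25% likewise held 12 higher and 1115 lower rows. The brightest 25% differed between genotypes in its balance, with 584 higher and 947 lower rows in *mec-3*.

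Each pair of a PVD/OLL and a whole-animal array was also looked at by itself. In the dimmest 25% the median difference was -0.60 (log2) between PVD/OLL replicate 1 and whole-animal replicate 1, and -0.83 between PVD/OLL replicate 1 and whole-animal replicate 2. For PVD/OLL replicate 2 it was -0.40 and -0.62 against whole-animal replicates 1 and 2. For PVD/OLL replicate 3 it was -0.13 and -0.35. All 6 were below 0, and PVD/OLL replicate 3 was the nearest to whole animals. In the brightest 25% the 6 medians lay between -0.09 and 0.12.

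**Figure D4:**
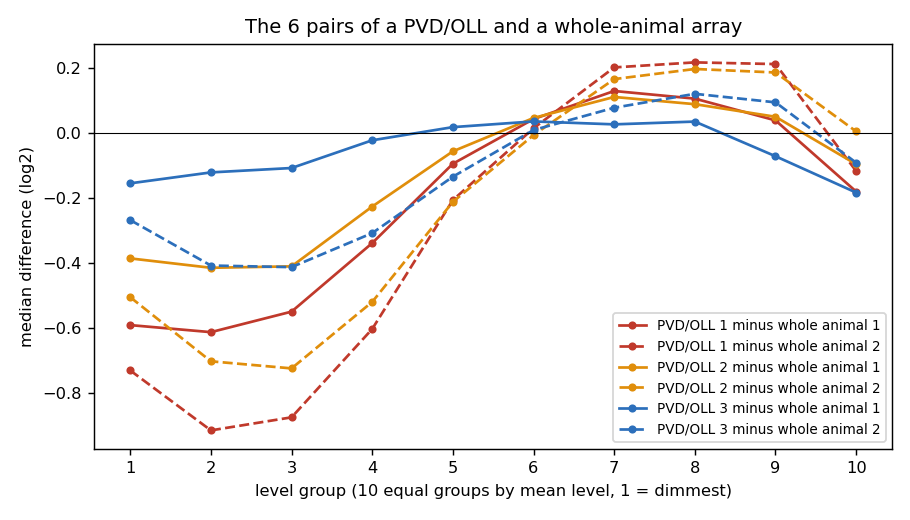
Median difference (log2, y axis) in each of 10 equal groups of rows by mean level (x axis, 1 is the dimmest), drawn for each of the 6 pairs of 1 PVD/OLL and 1 whole-animal array. Colours mark the PVD/OLL replicate, full lines whole-animal replicate 1 and dashed lines whole-animal replicate 2. The lines are spread out over groups 1 to 3, all below 0, and lie close together in the middle.

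The brightest messages were largely shared. Of the 1000 rows with the highest mean in PVD/OLL, 742 (74.2%) were also among the 1000 highest in whole animals, and among the highest 100 the shared number was 68. Of the 1000 brightest in PVD/OLL, 209 (20.9%) were called higher and 161 (16.1%) lower. A row can enter that set by reading high on the PVD/OLL arrays, which the order by *mec-3* PVD/OLL level avoids only in part. That order shares no array with the wild-type difference but still favours rows enriched in PVD/OLL. Across all rows the differences of both genotypes correlated at r = 0.71. The 1000 brightest in *mec-3* PVD/OLL held 229 rows (22.9%) higher and 140 (14.0%) lower in wild-type PVD/OLL than in wild-type whole animals, where 9.61% and 18.9% of all rows were so called. The 1000 brightest in *mec-3* whole animals held 105 higher (10.5%) and 260 lower (26.0%), the opposite balance. Of the brightest of 4 equal parts by mean wild-type level, 16.5% were higher and 17.1% lower. The balance among bright rows thus depended on which kind of sample set the order.

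The brightest called rows differed by about as much as called rows in general. The 50 brightest higher rows, at 12.19 to 14.61 (log2) in PVD/OLL, had a median difference of 0.97, against 1.06 over all higher rows, and none above 2.46. The 50 brightest lower rows, at 13.08 to 14.95 in whole animals, had a median of -1.29, against -1.16 over all lower rows. In *mec-3* the first 50 had a median difference of 0.39, with 15 called higher, and the second 50 had -1.08, with 38 called lower. Of all rows 7.59% were called higher and 19.1% lower in *mec-3*, and of the brightest 25% by wild-type level 12.7% and 20.5%. The test of the difference between genotypes called 0 of the first 50 (limma, adjusted p under 0.05; 16 at an unadjusted p under 0.05) and 1 of the second 50 (9 at an unadjusted p under 0.05).

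Ranks within each array do not change when an array is rescaled. A shift of more than 10 percentile points on each of the 6 pairs of arrays was found in 852 rows that ranked higher in PVD/OLL and 945 that ranked lower. More than 20 points was found in 109 and 186 rows, more than 30 points in 10 and 33 rows, more than 40 points in 4 and 2 rows, and more than 50 points in 2 and 0 rows. The balance of both directions thus varied with the size of the shift asked for. In *mec-3* the shifts of more than 20 points were 133 and 122 rows. Of the 109 rows, 95 also ranked higher on every *mec-3* PVD/OLL array than on either *mec-3* whole-animal array. Of the 186 rows, 136 ranked lower in the same way. Over all rows, the *mec-3* ranks lay apart like this in 5527 of 18451 with PVD/OLL higher and in 5047 with it lower.

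A strict rule for a move across the whole scale was met by 0 rows, though WBGene00011141 came close. No row (0 of 18451) lay in the top 25% on every PVD/OLL array and in the bottom 25% on both whole-animal arrays, and 0 rows had the opposite pattern. WBGene00011141 was above 96.5% of rows by its mean in PVD/OLL and above 20.8% in whole animals. At 4.71 (log2) on whole-animal replicate 1 it lay below that array's 25% point of 5.13. At 5.45 on whole-animal replicate 2 it lay just above that array's 25% point of 5.44. A wider pattern, the top 25% on every PVD/OLL array with the lower 50% on both whole-animal arrays, was found in 3 rows, all called. The lower 50% on every PVD/OLL array with the top 25% on both whole-animal arrays was found in 9 rows, all called.

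A smaller set of rows was called the same way under each of 17 settings, which are the fit as reported and its alternatives without a filter on level or a change of threshold. It holds 491 rows higher in PVD/OLL (27.7% of the 1773) and 997 lower (28.5% of the 3496). The smallest difference among them was 0.93 (log2) upward and 0.98 downward. Only 2 of the 491 higher rows lay in the dimmest 25% of the table, against 194 of the 997 lower rows. The higher rows had a median level of 8.77 in PVD/OLL, against 7.26 in whole animals. Of them, 284 were in the top 25% on every PVD/OLL array and 117 in the top 25% on both whole-animal arrays. The lower rows had a median of 6.07 in PVD/OLL, against 7.95 in whole animals. Of them, 433 were in the top 25% on both whole-animal arrays and 215 in the top 25% on every PVD/OLL array.

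The arrays of the mutant, which share no sample with the wild-type difference, gave a second measurement of the same rows. Of the 491 stable higher rows, 467 (95.1%) were also higher in *mec-3* PVD/OLL than in *mec-3* whole animals, with a median of 1.00 (log2) in *mec-3*, against 1.42 in wild type. Of the 997 stable lower rows, 972 (97.5%) were also lower, with a median of -1.18 in *mec-3*, against -1.60 in wild type. In *mec-3*, 333 of the first and 742 of the second were called in the same direction, where 7.59% and 19.1% of all rows were called higher and lower. The directions had unequal baselines: over all rows the median difference in *mec-3* was -0.28, so most rows were lower there. All calls of both genotypes use 1 estimate of the spread per row, which pairs calls but not directions. Rows chosen for a large wild-type difference are on average less far from 0 elsewhere by that choice alone.

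Rows with large wild-type differences kept their direction in *mec-3* but less often their size. Of the 67 rows at least 4-fold higher in wild type, 64 were higher in *mec-3* as well and 41 were called, with a median of 1.42 (log2) in *mec-3*, against 2.28 in wild type. At 4-fold or more, 18 of the 67 were called higher in *mec-3*, against 0.304% of all rows. Of the 312 rows at least 4-fold lower, 296 were lower in *mec-3* and 188 were called, with a median of -1.38, against -2.32 in wild type. At 4-fold or more, 70 of the 312 were called lower in *mec-3*, against 1.12% of all rows. Calls at any fold were made for 7.59% of all rows upward and 19.1% downward. Among the 40 rows at least 8-fold lower, 35 were lower in *mec-3* and 18 were called. Most rows of the table were lower in *mec-3* PVD/OLL, with a median of -0.28 over all rows.

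**Figure D5:**
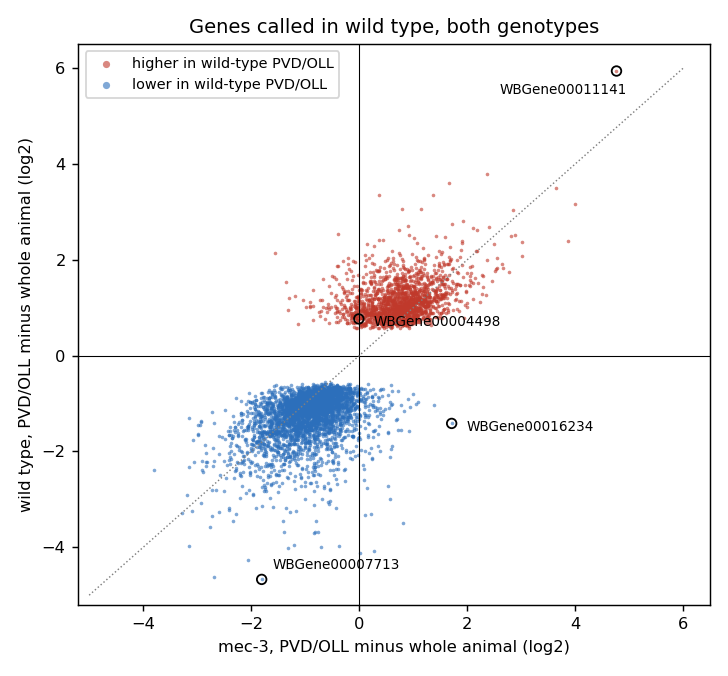
Difference in wild type (PVD/OLL minus whole animal, log2, y axis) against the same difference in *mec-3* (x axis) for the rows called in wild type. Red points were called higher and blue points lower in wild type, the dotted line marks equal differences, and circles mark the 4 identifiers. Most points share their sign in both genotypes, and WBGene00016234 is the blue point farthest to the right of 0.

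WBGene00016234 was the row called for a difference between the enrichments of both genotypes, a call that several settings did not keep. In wild type it measured 11.48, 11.94 and 11.57 (log2) in PVD/OLL, against 13.16 and 12.99 in whole animals, and was 2.67-fold lower (log2 difference -1.42, SE 0.22, limma adjusted p = 0.00208). In *mec-3* it measured 11.00, 10.98 and 11.18 in PVD/OLL, against 9.18 and 9.51 in whole animals, and was 3.27-fold higher (log2 difference 1.71, limma adjusted p = 0.00137). The groups did not overlap in either genotype, and the whole-animal levels were further apart between genotypes than the PVD/OLL levels were. The wild-type minus the *mec-3* difference was -3.13 (SE 0.32, limma adjusted p = 0.0157). That was the single row called (0.00542% of rows), while 1809 rows had an unadjusted p under 0.05. The call was lost with the replicate block (limma adjusted p = 0.106) and when any of 8 of the 10 arrays was left out (0.0624 to 0.170).

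Rows with neighbouring identifier numbers resembled each other in level, and only weakly in the wild-type difference. Between rows next to each other in number, the mean level correlated at r = 0.33 and the wild-type difference at r = 0.11 across 18450 pairs of rows. At 100 rows apart, the values were 0.11 and 0.03. These are descriptions across rows that share arrays, and no name or function was read from a number. In stretches of 100 numbers with at least 30 rows, of which there were 222, the share of rows called higher ran from 0% to 38.8% and the share called lower from 4.44% to 39.0%.

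The stretch from 4400 to 4499 was the brightest of these, and was looked at after its values were seen, because 8 of the 10 brightest higher rows fell into it. Its 90 rows had a median level of 13.31 (log2). In wild-type PVD/OLL 20 of them (22.2%) were higher and 4 (4.44%) lower than in whole animals, with a median difference of 0.25. Of all rows 9.61% and 18.9% were, and of the brightest 25%, which begins at only 8.20, 16.5% and 17.1%. Nearer in level, the 100 brightest rows by *mec-3* PVD/OLL held 19.0% higher and 2.00% lower. Those by *mec-3* whole animals held 10.0% and 11.0%. Rows of the stretch were not taken out of either set of 100, so these sets are no separate background for it. The part of level in the counts of the stretch was not tested. In *mec-3* 4 rows of the stretch were higher and 11 lower, with a median of -0.13. In 76 of the 90 rows the wild-type difference lay above the *mec-3* one. That was so for 54.3% of all rows and for 69.8% of the 500 brightest, again with rows of the stretch left in. The stretch from 1100 to 1199 held the largest share of higher rows, 26 of 67, and a median of 0.44 in wild type. Its rows were 20 higher and 10 lower in *mec-3*, where 7.59% and 19.1% of all rows were. The dimmest stretch, from 5800 to 5899, had a median level of 4.09, with 0 of its 80 rows higher (0 also after quantile normalization) and 19 lower (4 after quantile normalization). Its 23.8% of lower rows lay near the 24.9% of the dimmest 25% of the table.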

How the data were processed

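The deposited table holds log2 values from RMA, which corrects background, normalizes arrays and summarizes probes. RMA is named, without a version, per the submitters' processing notes, and the range of the values gave the log2 scale. How probes were assigned to genes, on which genome build, and whether both kinds of sample were normalized together is not given in the sources used here. The number of arrays limits the precision.

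Groups came from the sample titles. All 10 arrays entered 1 linear model with 4 group means, fitted by limma 3.58.1 (lmFit, eBayes; R 4.3.3) without filter or block, two-sided, with Benjamini-Hochberg adjustment over 18451 rows, and was checked on simulated data. Adding the mutant arrays lent degrees of freedom to the spread. The rows, lists and settings described were chosen with earlier results of these data known. The rule for named genes required a name; since 0 identifiers could be paired with one, it was applied without names and gives 4 identifiers: the largest rise and fall, the brightest higher row, and the row called for the difference of enrichments. The 54 gene lists, with the alternatives on them, could not be used. Each column carried a sample's identifier, and 0 further columns were present.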

Additional observations from a re-analysis of the deposited data

Results flagged for a closer look

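WBGene00016234 was picked out because its enrichment differed between the genotypes by a test of the difference itself: it was -1.42 (log2) for wild-type arrays and 1.71 for *mec-3* arrays, a difference of -3.13 (limma adjusted p = 0.0157 over all 18451 rows, all 10 arrays). With the replicate block the adjusted p was 0.106 (limma), so the call was lost. No group had the 4 arrays needed to look for a single array far from the others.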

How the results depend on the processing

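With the rows tested and calls made otherwise alike, the counts of 1773 higher and 3496 lower rows were 1023 and 2307 with a minimum of 2-fold, 753 and 1698 with the 5 wild-type arrays alone, and 1658 and 1396 with the dimmest 50% left out. Quantile normalization gave 2439 and 2216. Leaving out 1 array at a time gave 819 to 1759 higher and 1485 to 3884 lower rows, the lowest both times without whole-animal replicate 2. Where an array was left out of whole animals, the spread of the group with 1 array was taken from the other groups. Centring on the median, the dimmest 25% left out, a robust prior with an intensity trend, weights per array and an adjusted p under 0.10 kept both counts within 1.5 times. The leave-one-out fits for the mutant arrays, which touch the wild-type difference only through the spread, were chosen after seeing the data.

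The difference of enrichments called 1 row, and 5 with an adjusted p under 0.10, 8 with the dimmest 50% left out, 2 after quantile normalization, 2 with the intensity trend, and 0 to 16 with each array left out (limma; 1809 rows at an unadjusted p under 0.05). Its row, WBGene00016234, kept differences of -3.29 to -2.96, with limma adjusted p of 0.00318 to 0.170. The call was lost in 8 of the 10 fits that left out an array, all but those without PVD/OLL replicate 2 or whole-animal replicate 1 of wild type. Its wild-type fall was called under all 18 settings tried, as were WBGene00011141, at 5.57 to 6.47, and WBGene00007713, at -6.07 to -3.27, under 17. WBGene00004498 was called under 15 of 18, with limma adjusted p of 0.00468 to 0.150.

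Replicate numbers are shared by 2 pairs of wild-type arrays, and the labels do not say that a number marks a shared batch. With the replicate block the counts were 1472 higher and 3182 lower rows, and 0 for the difference of enrichments, where WBGene00016234 had an adjusted p of 0.106 (limma). Deviations of PVD/OLL and whole-animal arrays from their group means correlated at 0.19 for replicate 1 and at -0.03 for replicate 2. PVD/OLL replicate 3 and whole-animal replicate 2, which share no number, gave 0.18. With PVD/OLL replicates 1 and 2 only, the value for replicate 1 was 0.11. These values do not tell whether a number marks a batch. The gene lists and their alternatives were not run. No background level is known for any array, which limits what can be read from dim levels.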

Other observations

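Of the rows called in both genotypes, 16 had opposite directions: 10 were enriched in wild type and depleted in *mec-3*, and 6 were depleted in wild type and enriched in *mec-3*. Their differences of enrichments had sizes of 1.46 to 3.70 (log2). All 16 had an unadjusted p under 0.05 for that difference and 1 was called after adjustment over all rows (limma). Since the rows were chosen for opposite calls, the first count follows from the choice.

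Against a single whole-animal array, depleted rows were further from 0 with replicate 2 than with replicate 1. Over the 312 rows at least 4-fold lower, the median difference of the PVD/OLL mean was -2.65 (log2) against replicate 2 and -2.16 against replicate 1, and 287 and 201 of them reached 4-fold. Over the 67 rows at least 4-fold higher, the medians were 2.27 against replicate 2 and 2.25 against replicate 1, and 52 and 42 of them reached 4-fold. Over all 1773 higher rows the medians were 1.13 against replicate 2 and 0.99 against replicate 1, so enriched rows too were further from 0 with replicate 2.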
